A study of Homo sapiens with 6 samples.

Results

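The genes described here encode the contractile actin cytoskeleton of RPE1 cells and the adhesions it pulls on. They were chosen by symbol as a set of 10 genes, ACTA2, TAGLN, CNN1, MYL9, TPM1, TPM2, ACTN1, MYH9, VCL and ZYX, and each was found once among the 60666 genes on primary chromosomes in the expression table. The set was chosen with earlier results of these data known. RPE1 is an hTERT-immortalized human line from the retinal pigment epithelium. The line used here, hTERT-RPE1-TOShOFD1, carries a lentiviral Tet-On short hairpin RNA against OFD1, a protein of the centriole and centriolar satellites. The 3 control samples received no doxycycline (DOX), and the 3 OFD1-depleted samples received 200 ng/mL DOX for 72 h. Both groups carried the hairpin, and no group received DOX without an OFD1 hairpin, so effects of DOX and of OFD1 loss cannot be told apart. The study calls the samples biological replicates, and neither it nor the labels say how they were grown apart, so p-values measure the spread between these samples.

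Stress fibres are bundles of actin filaments crosslinked by alpha-actinin, wrapped by tropomyosin and pulled by non-muscle myosin II. They end in focal adhesions, where vinculin and zyxin sit between integrins and actin. Transcription of many of these genes is driven by serum response factor (SRF), which binds CArG boxes. Its coactivators, the myocardin-related factors, are held in the cytoplasm by monomeric actin, so the genes respond to the state of the actin cytoskeleton itself. ACTA2, TAGLN and CNN1 are best known from smooth muscle and myofibroblasts, and the other members are made by most adherent cells.

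In replicates 1, 2 and 3 OFD1 had 3.34, 3.62 and 3.44 FPKM without DOX against 0.795, 0.763 and 1.43 FPKM with DOX (28.7% of control). FPKM corrects fragment numbers for transcript length and for library size, so levels can be compared roughly between genes. A dependence on mRNA length that differed between samples remained, as given below. The 12025 genes whose mean reached 1 FPKM were tested with limma on log2(FPKM + 0.1), where the pseudocount understates the change of low genes. Of these, 17.0% passed an adjusted p of 0.05, with 5.07% higher and 11.9% lower in OFD1-depleted cells, and their median log2 fold change was -0.03. The FPKM of all genes summed to between 408302 and 414547 in control and between 433262 and 493510 in OFD1-depleted samples, and read depth is unknown because the table holds no counts. Mitochondrially encoded genes took between 8.66% and 13.8% of this sum in control and between 15.6% and 19.3% in OFD1-depleted samples, and with samples scaled to a common total without these genes ACTA2, TAGLN and ZYX still passed. The labels call the tissue retina, but the photoreceptor genes CRX, RCVRN and PDE6B were listed at 0 in every sample and NRL lay between 0.0978 and 0.286 FPKM. Vimentin (VIM) ranged from 3588 to 4458 FPKM and the keratin KRT8 from 139.6 to 218.2 FPKM. Of 7 pigment epithelium markers, the transcription factors MITF (5.06 to 7.75 FPKM) and OTX2 (1.56 to 2.10 FPKM) were present in every sample, and BEST1 reached 4.33 FPKM in OFD1-depleted replicate 2 alone. RPE65, RLBP1, PMEL and TYR did not exceed 0.627 FPKM. The 7 markers summed to between 7.34 and 7.79 FPKM in control and between 9.81 and 12.4 FPKM in OFD1-depleted samples. The highest sum, in OFD1-depleted replicate 2, includes the BEST1 value. MITF and OTX2 did not pass the test (limma adjusted p = 0.15 and 0.557), and the other markers were too low to be tested.

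The CArG box, made of CC, 6 bases that are A or T, and GG, was searched in RefSeq promoter windows on GRCh38.p14 that run from 250 bases before to 50 bases after a gene start. Windows were given for 8 of the 10 members, and TAGLN and MYL9 had none. An exact box lay in 1.29% of all 35116 windows, and a box with at most 1 mismatch lay in 18.9%. Stretches are shown for ACTA2 and ZYX, the members with the largest fold changes among the 9 tested, and for ACTG2 and ACTG1, an actin that rose and one that did not pass the test, so that they can be compared. Capitals mark the box, every stretch is on the strand of its gene, and each has 20 bases on either side of its outermost boxes.
ACTA2, chr10:88952815-88952914, minus strand: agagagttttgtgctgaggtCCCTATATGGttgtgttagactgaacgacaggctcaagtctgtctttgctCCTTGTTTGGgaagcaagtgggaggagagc
ZYX, chr7:143381219-143381268, plus strand: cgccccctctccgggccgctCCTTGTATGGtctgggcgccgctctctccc
ACTG2, chr2:73892878-73892964, plus strand: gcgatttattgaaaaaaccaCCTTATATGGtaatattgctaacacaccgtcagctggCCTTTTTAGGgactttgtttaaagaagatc
ACTG1, chr17:81512864-81512913, minus strand: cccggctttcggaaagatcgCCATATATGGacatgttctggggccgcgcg

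The 2 boxes of ACTA2 begin 121 and 71 bases before its start and each differ from the pattern at 1 base, as does the box of ZYX, which begins 106 bases before its start. The boxes of ACTG2, at 110 and 73 bases, and of ACTG1, at 94 bases, match exactly. ACTG2 also had a box with 1 mismatch at 239 bases, which is not shown, and the other window of ACTA2, at a more distant start, held none. Of the other members, ACTN1 had an exact box in 1 of its 4 windows, at a start that is not its canonical one. The windows of CNN1, TPM1, TPM2, VCL and MYH9 held neither form, and the window of TPM1 lies at a start other than the canonical one. A match describes these letters only, and no factor binding was measured in these samples.

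ACTA2, TAGLN and ZYX rose in OFD1-depleted cells, and no member fell. They were 3 of the 9 members tested, beside the 5.07% of all tested genes that rose by the same test. The members' median log2 fold change was 0.42, and 8 of the 9 estimates were above 0. The groups did not overlap in 5 of the 9, with OFD1-depleted values on top each time, which was so in 13.8% of all tested genes. Because the members were chosen with earlier results of these data known, setting them beside all tested genes is a description. It is not a test of the set. For any single gene, 3 samples against 3 cannot give an exact permutation p under 0.1.

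**Figure D1:**
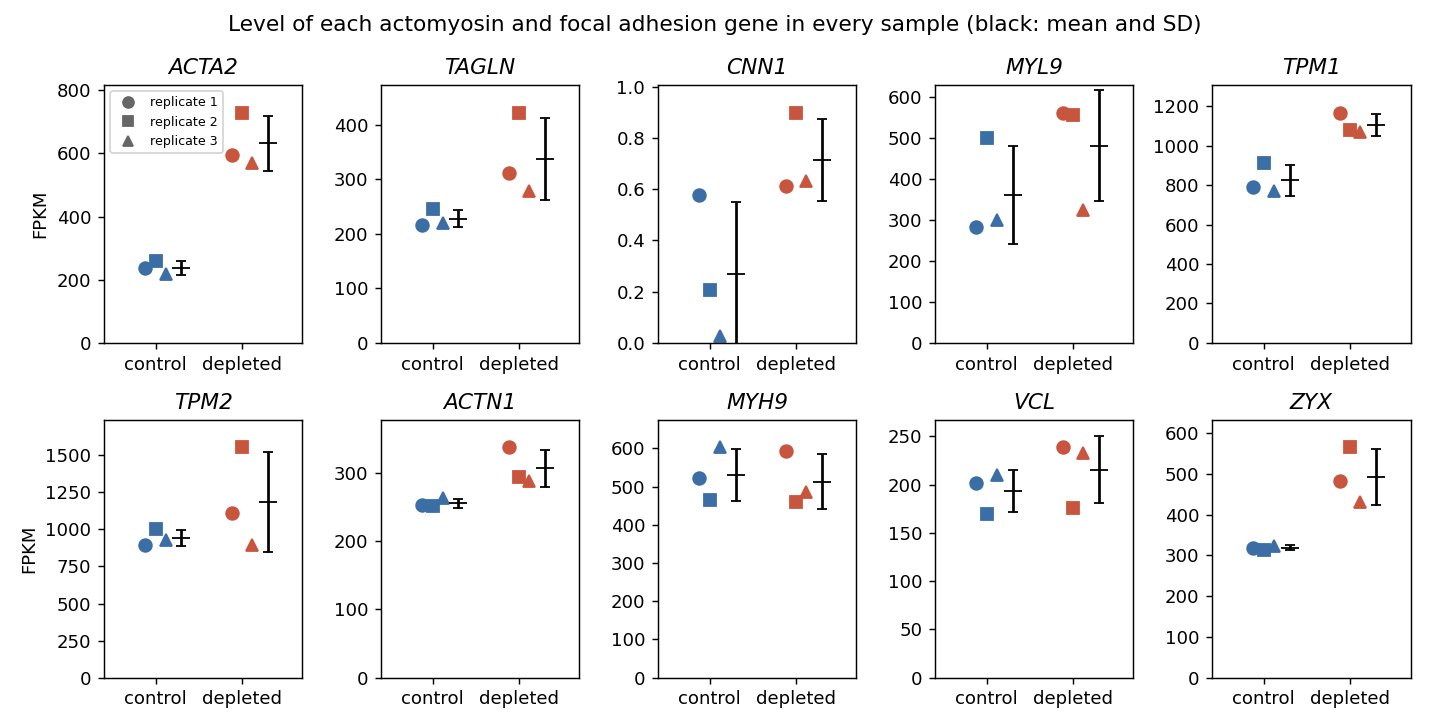
FPKM of the 10 genes in each of the 6 samples, with control in blue and OFD1-depleted in red, symbols for the replicate number and a black mean with SD (n = 3). ACTA2 stands clear of control in all 3 OFD1-depleted samples (570 to 729.6 against 217.2 to 260.3 FPKM), whereas MYL9, TPM2, MYH9 and VCL overlap. Each panel has its own axis, which begins at 0.

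ACTA2 encodes smooth muscle alpha-actin, the actin isoform that marks contractile myofibroblasts. ACTA2 (ENSG00000107796, GRCh38 chr10:88935074-88991339, minus strand, 9 exons in the canonical transcript) had 236.6, 260.3 and 217.2 FPKM in controls against 595.5, 729.6 and 570 FPKM in OFD1-depleted replicates 1, 2 and 3. The lowest OFD1-depleted sample was far above the highest control sample, and the means were 238.1 ± 21.6 and 631.7 ± 85.7 FPKM (SD, n = 3 per group). ACTA2 rose 2.65-fold in mean FPKM, and limma gave a log2 fold change of 1.40 (SE 0.147, adjusted p = 0.000104). Among all tested genes it ranked 51 by fold change. It moved from place 7 to place 3 among the members by level. MYH9, MYL9, ZYX and ACTN1, which had higher means in control, had lower means than ACTA2 in OFD1-depleted cells. Its call held in all 18 alternatives, with log2 fold changes from 1.22 to 1.47.

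The other actins give the setting of this rise. Beta-actin (ACTB) and gamma-actin (ACTG1), the cytoplasmic isoforms that build most filaments, did not pass the test. ACTB had 4740 ± 304 FPKM in controls against 5476 ± 139 FPKM in OFD1-depleted cells, and ACTG1 had 1786 ± 34.3 and 1750 ± 114 FPKM (SD, n = 3 per group). ACTA2 made up 3.65%, 3.69% and 3.22% of the summed FPKM of ACTA2, ACTB and ACTG1 in controls, against 7.58%, 9.03% and 7.46% with DOX. This share does not depend on how a sample was scaled. ACTG2, the gamma-actin of visceral smooth muscle, had 10.8, 11.7 and 12.4 FPKM in controls against 39.1, 45.2 and 35.6 FPKM in OFD1-depleted replicates (log2 fold change 1.77, standard error 0.135, adjusted p = 1.87e-05 from limma). Coding sequences of actins are very similar, and how reads shared between them were divided is not given in the sources used here, so ACTA2 and ACTG2 are uncertain to that extent.

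The genes FAS, STAMBPL1, ACTA2-AS1 and AL157394.3 overlap ACTA2 in position, and strand use in the counting is not stated. The antisense RNA ACTA2-AS1 had 0.368, 0.19 and 0.479 FPKM in controls against 1.72, 1.46 and 0.968 FPKM in OFD1-depleted replicates. Its reads cannot be told apart from those of ACTA2 without strand. FAS, with a log2 fold change of 0.21, and STAMBPL1, with 0.27, lie on the other strand and did not pass the test. AL157394.3 stayed under 0.449 FPKM in every sample.

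TAGLN encodes transgelin, a calponin-like protein that binds and crosslinks actin filaments in smooth muscle. TAGLN (ENSG00000149591, chr11:117199370-117207464, plus strand, 5 exons) had 216.8, 246.1 and 220.2 FPKM in controls against 312.1, 422.2 and 279 FPKM in OFD1-depleted replicates 1, 2 and 3. OFD1-depleted replicate 2 was the highest and replicate 3 lay closest to control, and the groups did not overlap. Limma gave a log2 fold change of 0.55 (SE 0.165, adjusted p = 0.0423), just inside the threshold. The adjusted p from limma was 0.0797 without OFD1-depleted replicate 1 and 0.155, 0.0636 and 0.149 without control replicates 1, 2 and 3. It was 0.0593 with TPM, 0.0727 without the variance trend and 0.188 with no filter on low values. PCSK7, which overlaps the end of TAGLN on the other strand, had a log2 fold change of -0.17 and did not pass. AP000892.4, which overlaps TAGLN on its own strand, had 0.279, 0.279 and 0.206 FPKM in controls against 0.391, 0.318 and 0.471 FPKM with DOX, too low to be tested.

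CNN1, the basic calponin of smooth muscle, was almost silent in this line. CNN1 (ENSG00000130176, chr19:11538767-11550323, plus strand, 7 exons) had 0.577, 0.207 and 0.0268 FPKM in controls against 0.613, 0.899 and 0.63 FPKM in OFD1-depleted replicates. All 3 OFD1-depleted values were above control, but the lowest of them exceeded control replicate 1 only slightly. Its mean was under 1 FPKM, so it was not tested with the other members. With no filter on low values it had an adjusted p of 0.34 (limma). CNN1 supplied 0.143% of the FPKM of the 3 calponins in OFD1-depleted cells, and CNN2 and CNN3 supplied the rest.

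MYL9 and MYH9 are chains of the myosin II motor. MYL9 encodes a regulatory light chain, whose phosphorylation switches on contraction. MYL9 (ENSG00000101335, chr20:36541497-36551447, plus strand, 4 exons) had 282.7, 498.4 and 300 FPKM in controls against 560.9, 554.4 and 323.8 FPKM in OFD1-depleted replicates. One sample in each group stood apart from the rest, with control replicate 2 near the OFD1-depleted values and OFD1-depleted replicate 3 near the control values. The estimate of 0.42 on the log2 scale (95% interval -0.14 to 0.97) did not pass (limma adjusted p = 0.297). Among the tested members MYL9 had the widest spread in control, up to 0.52 on the log2 scale from the group mean.

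MYH9, the heavy chain of non-muscle myosin IIA, did not pass the test. MYH9 (ENSG00000100345, chr22:36281280-36387967, minus strand, 41 exons) had 522.9, 465.2 and 602.9 FPKM in controls against 594, 460 and 485.4 FPKM in OFD1-depleted replicates. The groups overlapped over most of their range, and the log2 fold change was -0.05 with a 95% interval from -0.39 to 0.30 (adjusted p = 0.867 from limma). Its sign differed between alternatives, from -0.28 to 0.11. MYH9 supplied 98% of the FPKM of the non-muscle heavy chains in control. MYH10, which encodes the heavy chain of myosin IIB, had 10.5, 10.7 and 11.2 FPKM in controls against 9.34, 6.15 and 8.36 FPKM in OFD1-depleted replicates, and MYH14 was listed at 0 throughout.

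TPM1 and TPM2 encode tropomyosins, coiled coils that lie along the filament and set which myosins and severing proteins can reach it. They were the most abundant members in both groups, and their ranges overlapped each other in both. TPM1 (ENSG00000140416, chr15:63042632-63071915, plus strand, 10 exons) had 790, 915 and 770.9 FPKM in controls against 1168, 1080 and 1067 FPKM in OFD1-depleted replicates. The groups did not overlap, but the log2 fold change of 0.42 (95% interval 0.11 to 0.74) had an adjusted p of 0.0681 in limma and did not pass. TPM1 passed in limma without OFD1-depleted replicate 2 (adjusted p = 0.0323) and without control replicate 2 (0.0449). The call was also reached with median-of-ratios scaling (0.0428), array weights (0.00479), a replicate block (0.0258) and each sample's trend on mRNA length removed (0.0397). TPM1 did not pass in the other 12 of the 18 alternatives. Limma gave an adjusted p of 0.499 with quantile normalization and 0.169 with TPM. Without OFD1-depleted replicate 1 or control replicates 1 or 3, it was 0.201, 0.272 and 0.264. TPM2 (ENSG00000198467, chr9:35681992-35690056, minus strand, 9 exons) had 895.3, 1005 and 927.3 FPKM in controls against 1111, 1554 and 894.8 FPKM in OFD1-depleted replicates. OFD1-depleted replicate 2 carried most of the difference and replicate 3 lay just under all control samples, and the log2 fold change of 0.30 (95% interval -0.14 to 0.73) did not pass. TPM4 had a log2 fold change of 0.01 and TPM3 of -0.20, and neither passed. The antisense RNA TPM1-AS, which overlaps TPM1, had 0.818 ± 0.296 FPKM in controls against 1.10 ± 0.322 FPKM with DOX (SD, n = 3 per group).

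ACTN1 encodes the alpha-actinin that spaces the filaments of stress fibres and anchors them at adhesions. ACTN1 (ENSG00000072110, chr14:68874128-68979440, minus strand, 22 exons) had 252, 251 and 263.1 FPKM in controls against 337, 293.7 and 287.4 FPKM in OFD1-depleted replicates. Every OFD1-depleted sample was above every control sample, yet the log2 fold change was only 0.26 (95% interval -0.03 to 0.54) and did not pass (adjusted p = 0.204 from limma). Its relative ACTN4 had a log2 fold change of -0.02.

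VCL and ZYX are the members that sit in the adhesion plaque. VCL encodes vinculin, which links talin to actin under tension. VCL (ENSG00000035403, chr10:73995193-74121363, plus strand, 22 exons) had 201.3, 169.2 and 209.6 FPKM in controls against 238.7, 175.5 and 232.5 FPKM in OFD1-depleted replicates. Replicate 2 was the lowest of each group, the groups overlapped, and the log2 fold change was 0.15 (95% interval -0.19 to 0.49, adjusted p = 0.567 from limma). AP3M1, which overlaps VCL on the other strand, had a log2 fold change of 0.20 and did not pass. The genes that overlap MYL9, MYH9 and ACTN1 did not exceed 1.93 FPKM.

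ZYX encodes zyxin, which moves to strained stress fibres and recruits proteins that repair them. ZYX (ENSG00000159840, chr7:143381295-143391111, plus strand, 10 exons) had 319.3, 312.7 and 324.2 FPKM in controls against 482.6, 565.4 and 430.3 FPKM in OFD1-depleted replicates. Control samples differed little from each other (SD 5.76 FPKM), and every OFD1-depleted sample lay above them. ZYX rose, with a limma log2 fold change of 0.62 (SE 0.142, adjusted p = 0.0124). The adjusted p from limma was 0.0628 without control replicate 1 and 0.0548 without control replicate 3, and 0.0828 with no filter on low values. EPHA1 and MIR6892, which overlap ZYX, had under 1.32 FPKM in every sample.

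**Figure D2:**
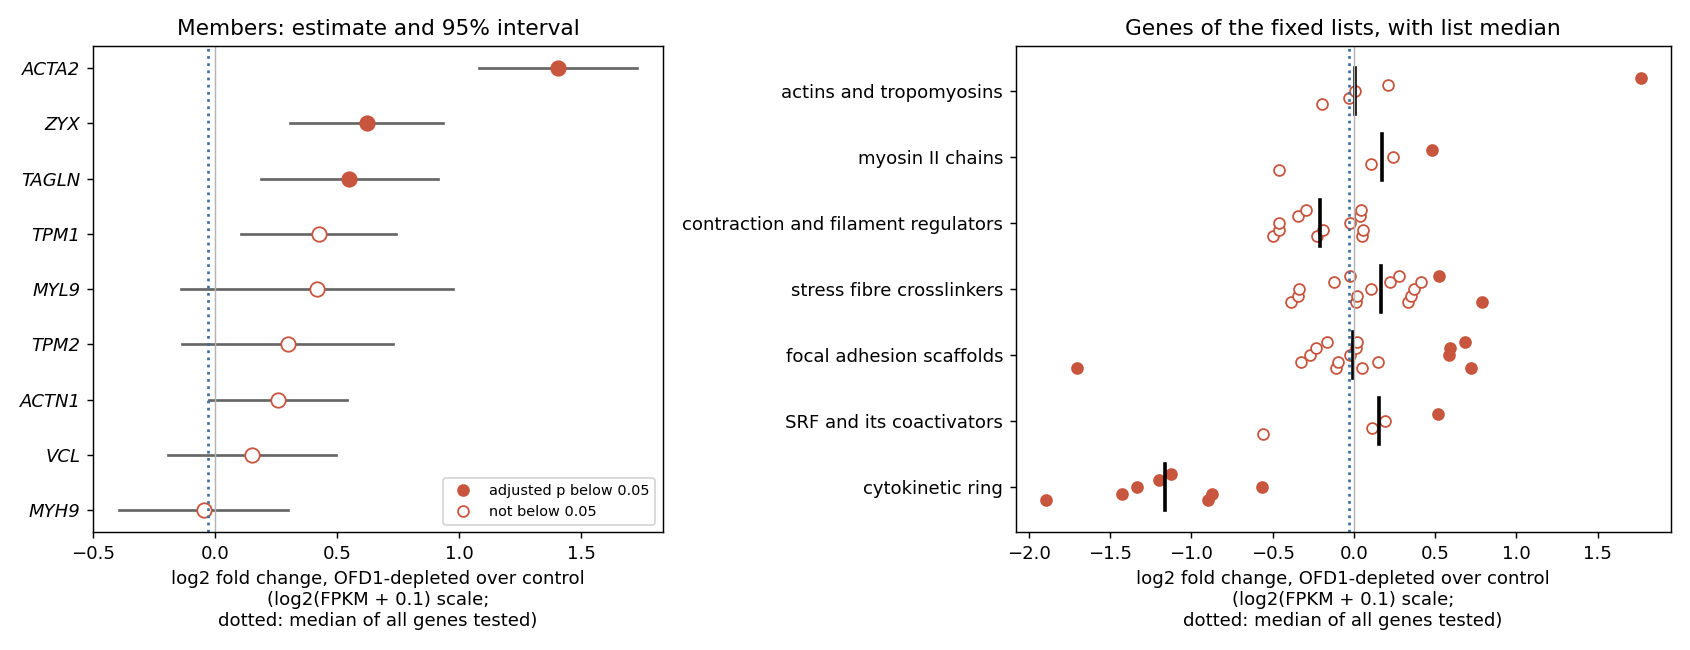
Log2 fold changes (OFD1-depleted over control) of the 9 tested members with 95% intervals on the left, and of the 65 tested genes in 7 lists of related genes on the right, with a black bar at each list's median. Filled points passed an adjusted p of 0.05, and the dotted line is the median of all tested genes (-0.03). ACTA2 (1.40) and ACTG2 (1.77) lie far to the right, and the cytokinetic ring genes lie between -1.90 and -0.56.

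The order of the members by level was loose at most steps. In control it ran TPM2, TPM1, MYH9, MYL9, ZYX, ACTN1, ACTA2, TAGLN, VCL and CNN1. The ranges of neighbours overlapped between TPM2 and TPM1, MYH9 and MYL9, MYL9 and ZYX, ACTN1 and ACTA2, and ACTA2 and TAGLN. In OFD1-depleted cells the order ran TPM2, TPM1, ACTA2, MYH9, ZYX, MYL9, TAGLN, ACTN1, VCL and CNN1. There the gaps held only between TPM1 and ACTA2, ACTN1 and VCL, and VCL and CNN1.

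Within gene families, the shares of ACTA2, TAGLN, ZYX, ACTN1 and MYH9 were higher in all 3 OFD1-depleted samples than in all 3 control samples. Shares were tested by two-sided exact permutation of samples, and after adjustment over the 9 shares each of these 5 had an adjusted p of 0.18, so none could pass in this design. TAGLN supplied 26.3% ± 0.607 of the FPKM of the transgelins in control and 32.7% ± 0.704 in OFD1-depleted cells (SD, n = 3 per group). The remainder came almost wholly from TAGLN2, the transgelin of non-muscle cells, which itself had a log2 fold change of 0.11 and did not pass. Expressed as a share of both alpha-actinins, ACTN1 went from 37.2% ± 1.41 to 41.9% ± 1.65 (SD, n = 3 per group). MYH9 went from 98% ± 0.213 to 98.5% ± 0.189 of the heavy chains.

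ZYX supplied 75.8% ± 0.555 of the FPKM of ZYX, LPP and TRIP6 in control and 83.6% ± 1.48 in OFD1-depleted cells (SD, n = 3 per group). LPP, a LIM protein of adhesions related to zyxin, had 6.04, 5.63 and 5.72 FPKM in controls against 2.11, 1.13 and 2.09 FPKM in OFD1-depleted replicates. ZYX and LPP therefore went in opposite directions, since LPP fell with a log2 fold change of -1.70 (adjusted p = 0.000538 from limma). TRIP6, the third gene of this family, had a log2 fold change of -0.02 and did not pass. TPM1, TPM2 and CNN1 had overlapping shares, and so did MYL9, at 29.5% ± 4.29 and 30% ± 5.73 of the regulatory light chains (SD, n = 3 per group).

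Other genes of the contractile and adhesion machinery were read from 68 genes in 7 lists, of which 65 were tested. Of these, 9 rose and 9 fell, beside 5.07% and 11.9% of all tested genes. With TPM, 4 list genes rose and 13 fell, beside 264 and 1974 of all tested genes. Outside the cytokinetic ring, 9 of 57 rose and 1 fell, and the median log2 fold change was 0.02. The 9 genes that rose came from 5 of the 7 lists. These lists were also chosen with earlier results of these data known, so the percentages of all tested genes serve as description only.

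Among the actins and tropomyosins only ACTG2 passed, of 5 tested. Of the myosin II chains, 1 of 4 tested rose, MYL12A, a regulatory light chain, at a log2 fold change of 0.48 (adjusted p = 0.0462 from limma). MYL12A no longer passed without OFD1-depleted replicates 1 or 3 or control replicates 1 or 3, with adjusted p between 0.0749 and 0.222 in limma.

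None of the 12 regulators of contraction and filament turnover passed in limma, and 5 of them had an unadjusted p under 0.05, as did 30.6% of all tested genes. This list holds small GTPases, ROCK1 and ROCK2, the myosin light chain kinase MYLK, the myosin phosphatase, DIAPH1, the LIM kinases and cofilin. Their median log2 fold change was -0.21, with a range from -0.50 to 0.06. ROCK1, ROCK2 and MYLK have long mRNAs (9446, 8345 and 10113 bases), while those of RHOA, RHOC and CFL1 are short (1805, 1117 and 1245 bases). Lengths in between, from 2367 to 5735 bases, were those of RHOB, LIMK1, LIMK2, PPP1CB, PPP1R12A and DIAPH1. Of these, LIMK2, PPP1CB and DIAPH1 had log2 fold changes of -0.29, -0.46 and -0.34. RHOB, LIMK1 and PPP1R12A had 0.04, 0.04 and -0.19. All tested genes above 6000 bases had a median of -0.16. The 18 alternatives include removal of each sample's trend on length. Over them the highest estimates of ROCK1, ROCK2, PPP1CB, DIAPH1 and LIMK2 lay between -0.30 and -0.21. Those of the other regulators reached above 0. Whether mRNA length had a part in this list was not tested. In 5 of the 12 all OFD1-depleted values lay below all control values, where 22.3% of all tested genes did so.

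Of the 16 stress fibre crosslinkers, 2 rose. PDLIM5, a PDZ and LIM protein that binds alpha-actinin, had 36.9, 43.9 and 35.9 FPKM in controls against 77.3, 55.7 and 70.3 FPKM in OFD1-depleted replicates (log2 fold change 0.79, adjusted p = 0.00455 from limma). LIMA1, an actin bundling LIM protein, rose by 0.52 (adjusted p = 0.0362 from limma). It no longer passed without OFD1-depleted replicates 1 or 3 or control replicates 1 or 3, with adjusted p from 0.0979 to 0.148 in limma. The list's median was 0.17.

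Of the 16 focal adhesion scaffolds, 4 rose and LPP fell, while talin 1 (TLN1, -0.27) and paxillin (PXN, -0.11) did not pass. TES, a LIM protein that binds zyxin, had 18.1, 21.4 and 16.8 FPKM in controls against 31.9, 30.7 and 30 FPKM in OFD1-depleted replicates (log2 fold change 0.72, adjusted p = 0.00339 from limma). FERMT2, a kindlin that activates integrins, rose by 0.58 (adjusted p = 0.012 from limma). ENAH, an actin filament elongator, rose by 0.68, and TGFB1I1, a paxillin relative also called Hic-5, rose by 0.59. ENAH, TGFB1I1, TLN1 and PXN were picked out after their values were seen. Without control replicates 1 or 3, ENAH (limma adjusted p = 0.0519 and 0.0658), TGFB1I1 (0.0731 and 0.0585) and FERMT2 (0.0676 and 0.0566) no longer passed, nor did FERMT2 without OFD1-depleted replicate 1 (0.0534).

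SRF itself had 17.5, 15.4 and 19.4 FPKM in controls against 26.3, 25.6 and 23 FPKM in OFD1-depleted replicates. SRF rose (limma log2 fold change 0.52, adjusted p = 0.0217) and no longer passed without OFD1-depleted replicate 1 (0.07) or control replicates 1 (0.0832) or 2 (0.0777). It was the only gene of 4 tested in its list to pass. Its coactivator MRTFA had a log2 fold change of 0.11. Another coactivator, MRTFB, had 2.24, 1.65 and 2.09 FPKM in controls against 1.65, 0.819 and 1.64 FPKM in OFD1-depleted replicates. MRTFB did not pass (log2 fold change -0.56, limma adjusted p = 0.221). MYOCD, the coactivator found in smooth and cardiac muscle, stayed under 0.0589 FPKM.

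The cytokinetic ring also uses actin and myosin II, and all 8 of its listed genes fell. ANLN, or anillin, which ties the ring to the membrane, had 83.7 ± 9.55 FPKM in controls against 22.6 ± 4.59 FPKM with DOX (SD, n = 3 per group), or a log2 fold change of -1.90 (adjusted p = 3.42e-05 from limma). PRC1, a bundler of the central spindle, had -1.42, and citron kinase (CIT) had -1.34. Most genes of this list are made mainly in dividing cells. In bulk samples, fewer cells making a transcript and less of it per cell cannot be told apart. SEPTIN9 (-0.56) lost its call without control replicate 3 (adjusted p = 0.0522 from limma).

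Smooth muscle markers were read beside ACTA2 and TAGLN. The 5 markers MYH11, DES, MYOCD, LMOD1 and ACTG2 summed to between 28.5 and 31.6 FPKM in controls against between 60.7 and 71.1 FPKM in OFD1-depleted samples. Only LMOD1 and ACTG2 were above 1 FPKM in any sample. MYH11 and DES, the defining myosin and intermediate filament of smooth muscle, did not exceed 0.0639 FPKM. LMOD1, a leiomodin that nucleates actin, rose by 0.49 (adjusted p = 0.0177 from limma), and lost its call without OFD1-depleted replicate 1 (0.0646) or control replicates 1 (0.112) or 3 (0.0676). Summed markers of endothelium stayed at or under 0.229 FPKM and those of leukocytes at or under 0.255 FPKM.

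Both the groups and the samples of one group differed by the length of the mRNA. The median log2 fold change of tested genes ran from 0.13 for a canonical mRNA of up to 1000 bases to -0.16 above 6000 bases. In OFD1-depleted replicate 2, genes with a canonical mRNA of up to 1000 bases deviated from the group mean by a median of 0.26 on the log2 scale, and genes above 6000 bases by -0.30. OFD1-depleted replicate 1 had -0.10 and 0.20 in the same classes, replicate 3 had -0.16 and 0.10, and control samples stayed between -0.05 and 0.10. The longest members, MYH9 (7451 bases) and VCL (5497 bases), were lowest in OFD1-depleted replicate 2 among the depleted samples, while the other 7 tested members were lowest in replicate 3. With each sample's trend on length removed, an alternative added after the data were seen, ACTA2, TAGLN and ZYX still passed and TPM1 and ACTN1 passed as well, at log2 fold changes of 1.36, 0.63, 0.64, 0.37 and 0.34.

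The members were not all alike across the 6 samples. Correlated with the mean of the standardized log2 values of the 9 tested members, which includes each of them, ACTN1 (r = 0.95), ZYX (0.94), ACTA2 (0.92), TPM1 (0.91) and TAGLN (0.86) were close to the common profile, MYL9 (0.70) and TPM2 (0.68) less so. VCL (0.32) and MYH9 (0.04) were not. Outside the members, MYD88, SAMD10 and EEF2 had the profiles most like this mean, each at r = 0.99 over 6 samples in 2 groups, which share their scaling. None of these 3 passed the test, and r here is a description picked from all tested genes.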

How the data were processed

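RNA-seq of 6 samples was analysed, with conditions and replicate numbers from the sample labels. The authors deposited FPKM per Ensembl gene, made per the methods with HISAT2 (2.0.5 in the submitters' processing notes) on GRCh38, Ensembl version 94, and StringTie; the strand setting is not given in the sources used here. The labels name both a TruSeq kit and a directional NEBNext kit. The table holds no counts. No samples held identical values.

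Genes on primary chromosomes whose mean reached 1 FPKM were tested by limma (3.58.1, R 4.3.3) with a variance trend on log2(FPKM + 0.1), two-sided, with Benjamini-Hochberg adjustment over all 12025 genes and a threshold of 0.05. The script was tested on simulated data. Family shares were compared by exact permutation in Python 3.11.15 with scipy 1.17.1. mRNA lengths and exon numbers came from canonical transcripts of GENCODE version 44, and promoters from RefSeq. Values are given for the members, OFD1, family genes, up to 3 genes with the smallest p among those past the threshold in each list, overlapping genes and the 3 genes closest in profile. Cell type markers are given as well. Outside this rule, values are given for ENAH, TGFB1I1, TLN1, PXN, SEPTIN9, MRTFA, MRTFB and regulators of contraction and filament turnover. The members and lists were chosen with earlier results of these data known. Alternatives were pseudocounts of 1 and 0.01, no filter or a stricter one (5 FPKM), TPM, median-of-ratios scaling, a common total without mitochondrially encoded genes, quantile normalization, limma without trend or with array weights, a replicate block, each sample left out, and removal of the trend on mRNA length, added after the data were seen. For shares, the alternative was the log2 ratio to the rest of the family.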

Additional observations from a re-analysis of the deposited data

How the results depend on the processing

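Of 162 values of the 9 tested members under 18 alternatives, 139 kept their direction and their side of the threshold, 10 lost a call, 8 gained one and 5 changed sign. ACTA2 kept its call in all of them. The sign changes were TPM2 at -0.015 with quantile normalization and MYH9, which was 0.00393 with median-of-ratios scaling, 0.11 with the length trend removed and between -0.16 and 0.05 when single samples were left out. Members past the threshold numbered 3 as reported, 1 with no filter on low values, 5 with array weights, 5 with the length trend removed, and from 1 to 4 with single samples left out, where 1 remained without control replicate 1 or without control replicate 3. All genes past the threshold numbered 2039 as reported, 1083 with no filter, 3956 with array weights, 3064 with the length trend removed, and from 1111 to 2818 with single samples left out. The causes were not tested. With no filter the unadjusted p of ACTA2, TAGLN and ZYX also rose, to 7.95e-05, 0.0211 and 0.00483. List genes past the threshold, 18 as reported, ranged from 12 to 25. Higher ones, 9 as reported, ranged from 3 without control replicate 1 to 13 with array weights or the length trend removed. Lower ones, also 9 as reported, ranged from 8 to 13. Of the 9 higher genes, ACTG2, PDLIM5 and TES kept their call in all 18 alternatives. TGFB1I1 kept it in 15, FERMT2 and ENAH in 14, SRF in 13, MYL12A in 10 and LIMA1 in 9.

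With TPM the median log2 fold change over all genes shifted by -0.15, with 264 higher and 1974 lower genes, where 610 and 1429 were reported. ACTA2 was at 1.26, ZYX at 0.47 and TAGLN at 0.40 there, and TAGLN lost its call (limma adjusted p = 0.0593). Quantile normalization gave 1093 higher and 1311 lower genes. With single samples left out, the change in family share ran from -2.30 to 3.96 percentage points for TPM2 and from -2.04 to 3.61 for MYL9, and the other 7 shares kept their sign. Shares as log2 ratios kept every sign.

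Deviations of samples with the same replicate number correlated at 0.058, 0.048 and 0.011 across genes, and those with different numbers at -0.080 to 0.050. Correlations this small neither show that the number pairs the samples nor exclude it. Replicate 2 deviated upward in both groups for mRNAs up to 1000 bases (0.10 in control, 0.26 in OFD1-depleted). Above 6000 bases it deviated downward in both (-0.02 and -0.30). In replicates 1 and 3 of both groups the shorter class lay lower. With the replicate block 4 members passed, TPM1 being added, and 2296 genes and 19 list genes passed. Depth is not known, so the precision of low values such as CNN1 cannot be given.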
